A study of Mus musculus with 36 samples.

Results

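Liver transcripts of mice on a high fat diet (HFD) were compared between ZT16 and ZT4, with ZT (Zeitgeber time) given in hours after the lights came on. The comparison rests on 6 of the 36 samples of the series, chosen by their labelled diet and harvest time. They are 3 liver samples taken at ZT16, 4 h into the dark and feeding phase of nocturnal mice, and 3 taken at ZT4. The latter time is 4 h into the light and rest phase. All animals were C57BL/6J, an inbred laboratory strain, 16 weeks old at harvest, kept in a cycle with 12 h of light and fed freely. For 10 weeks the HFD groups ate a diet with 60% of its calories from fat, and the control groups ate normal chow. The chow liver samples of the same times, 3 at ZT16 and 3 at ZT4, served as the reference for the diet. The remaining 24 arrays entered the fit for the spread and gave the other times of day. Whole liver was used, so fewer cells of a type and less RNA per cell cannot be told apart. The labels number the samples of a group and give no sex or further origin, so a p-value here weighs a difference against the sample-to-sample spread, which may be technical.

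The liver clock is a feedback loop in which the activators ARNTL and CLOCK bind E-box sequences and drive the Per, Cry, Nr1d and Dbp genes. PER and CRY proteins then block their own activators, while the REV-ERB proteins made from Nr1d1 and Nr1d2 repress Arntl and Cry1. Clock factors, meals and hormones together time the genes of sterol, drug, amino acid and NAD metabolism in hepatocytes, and high fat feeding is known to alter this timing.

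Levels are log2(intensity + 16) of 1 array per sample. A difference is the ZT16 mean minus the ZT4 mean on that scale, which understates the change of dim genes. Among 13956 genes, arrays of the 2 HFD groups correlated at 0.989 to 0.995 within a group and at 0.981 to 0.990 between the groups, and their median intensities ran from 77.4 to 87.3. Hepatocyte markers were bright, with summed intensities of 66083 to 70429 at ZT16 and 63284 to 68997 at ZT4. Of 11 marker lists for liver and foreign cell types, 0 had a called member in limma. An unadjusted p under 0.05 was found for 4 of their 63 tested genes, against 14.6% of all tested genes. The sinusoidal endothelium list summed to 5829 to 7085 at ZT16 and to 4414 to 6014 at ZT4, and its part in the results was not tested. The 12 Kupffer cell and macrophage markers summed to 4831 to 7028 at ZT16 and to 4816 to 7061 at ZT4. The 3 measured pancreas and gut genes summed to 246 to 275 at ZT16 and to 234 to 292 at ZT4.

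At ZT16 the HFD liver had more Cry1, Arntl, Per1, Per2, Usp2 and Lonrf3 transcript than at ZT4, and far less Nr1d1 and Dbp. With limma and a Benjamini-Hochberg adjusted p under 0.05, 490 of 13956 genes were called, which is 3.51% of those tested. Of these, 258 were higher at ZT16 (1.85%) and 232 were lower (1.66%). The size of a called difference had a median of 0.45, and at least 2-fold was reached by 21 genes that rose and 10 that fell. The 3 ZT16 and 3 ZT4 arrays did not overlap for 486 of the called genes, against 24.9% of all tested genes. The number of calls depended on single arrays. In all, 247, 295 and 245 genes were called without ZT16 array 1, 2 or 3, and 226, 239 and 379 without ZT4 array 1, 2 or 3. Between 218 and 348 of the 490 genes were still called in these fits. At an unadjusted p under 0.05 the count was 2044 genes, or 14.6%.

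Among called genes with no overlap between the groups' arrays, the largest increase was that of Serpina4-ps1, a pseudogene of the serpin family. Signal from related serpin genes was not tested for this pseudogene. Its level was 11.18, 10.07 and 10.74 at ZT16 and 7.65, 9.31 and 8.82 at ZT4. The groups did not overlap, although the ZT4 arrays spread widely, and the difference was 2.07 ± 0.50 (SE, limma adjusted p = 0.0136). The range was 1.60 to 2.43 when single arrays were left out, and the call was lost without ZT16 array 1 or 3 or ZT4 array 1. Cry1, which encodes a repressor of CLOCK and ARNTL, had levels of 8.37, 8.54 and 8.52 at ZT16 against 6.47, 6.71 and 6.75 at ZT4. All 3 ZT16 arrays stood far above the ZT4 arrays, a 3.57-fold difference (log2 1.84 ± 0.12 SE, adjusted p = 2.96e-11). Lonrf3, a RING finger protein gene, read 7.83, 7.93 and 7.94 at ZT16 against 6.33, 6.04 and 6.29 at ZT4 (3.20-fold, adjusted p = 7.13e-10). Usp2, a ubiquitin-specific protease gene, read 9.36, 9.13 and 8.98 at ZT16 against 7.35, 7.74 and 7.55 at ZT4 (3.06-fold, adjusted p = 1.84e-05). In both genes the lowest ZT16 array exceeded the highest ZT4 array by more than 1 log2 unit.

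The next largest called increases with no overlap had differences from 1.22 to 1.497. They were Kcnma1, the pore subunit of a calcium-activated potassium channel (1.497 ± 0.324), and Etfbkmt, a methyltransferase of the electron transfer flavoprotein (1.46 ± 0.23). The predicted gene Gm14403 rose by 1.39 ± 0.19, and Fmo2, a flavin-containing monooxygenase gene, by 1.31 ± 0.24. Noct, which encodes the rhythmic protein nocturnin, rose by 1.296 ± 0.265. Arntl (1.27), Cyp2b10 (1.23) and Per1 (1.22) complete the 12. Cyp2b10, a cytochrome P450 gene induced through the receptor CAR, had an error of ± 0.34 (SE) and a limma adjusted p of 0.0399. It was dim on HFD, with means of 6.70 at ZT16 and 5.47 at ZT4, against 10.17 and 8.33 on chow. Genes were tested above a level of 6.11, taken as the mean over all 36 arrays, chow included. The Cyp2b10 call was lost without each of the 6 arrays in turn, with a range of 1.05 to 1.34. It was also lost with an offset of 64, with no filter and with a trend and robust prior (range 0.72 to 1.60 over all alternatives). Kcnma1 lost its call without ZT4 array 1, at 1.35. Signal shared with other Cyp2b genes, whose sequences are similar, was not measured probe by probe.

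Nr1d1, which encodes the repressor REV-ERB alpha, showed the largest change of all tested genes. Its level was 7.14, 7.69 and 7.21 at ZT16 against 10.70, 10.68 and 10.62 at ZT4. The ZT4 arrays lay within 0.1 of each other and all ZT16 arrays about 3 log2 units below them, a level 9.98-fold lower at ZT16 (-3.32 ± 0.26 SE, adjusted p = 7.13e-10). Dbp, an activator of D-box genes, read 7.95, 7.81 and 7.72 at ZT16 against 9.85, 9.94 and 9.64 at ZT4. It was 3.96-fold lower at ZT16 (-1.99 ± 0.17, adjusted p = 3.32e-09), with a wide gap between the groups. Arrdc3, an alpha-arrestin gene, read 10.11, 10.34 and 10.24 at ZT16 against 11.75, 11.71 and 11.49 at ZT4, a 2.67-fold lower level at ZT16.

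**Figure D1:**
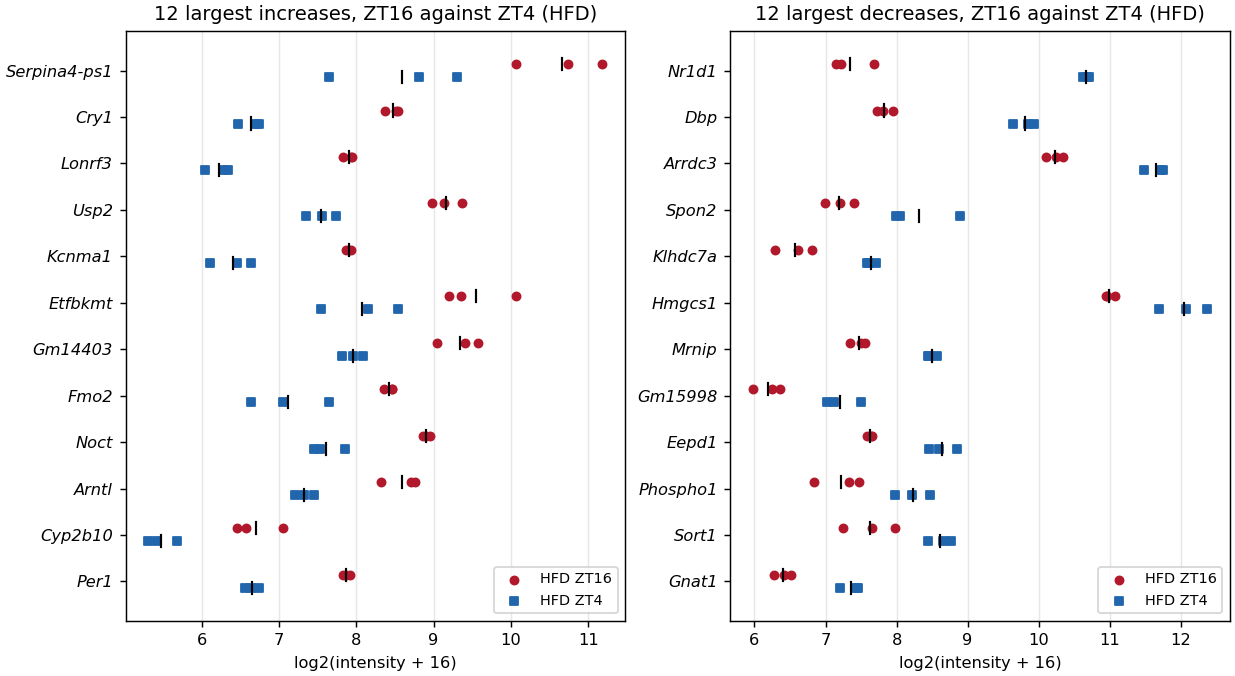
Log2(intensity + 16) of the 12 called genes with the largest increase (left) and the 12 called genes with the largest decrease (right) on HFD. ZT16 (red circles) and ZT4 (blue squares) have 1 point per array and a black tick at the mean of 3. The groups do not overlap in any of the 24 genes, which the choice of these genes required, and Nr1d1 has the widest gap (7.14 to 7.69 at ZT16 against 10.62 to 10.70 at ZT4).

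The other large decreases among called genes with no overlap lay between -1.12 and -0.96. Rgs16 (-2.02) and Lcn2 (-1.18) had larger negative differences that did not pass, as given below. Spon2, which encodes a secreted matrix protein, fell by 1.12 ± 0.21 (SE), Klhdc7a by 1.07 ± 0.16, and Hmgcs1, the cytosolic HMG-CoA synthase of sterol synthesis, by 1.05 ± 0.15. Mrnip, whose product binds the MRN DNA repair complex, fell by 1.03 ± 0.15, and Eepd1, which encodes an endonuclease-like protein, by 1.01 ± 0.13. Phospho1, a phosphatase of phosphocholine, fell by 1.01 ± 0.26, Gm15998 by 1.01 ± 0.24, and Sort1, the sorting receptor sortilin, by 0.99 ± 0.22. Gnat1, a rod transducin subunit, was lower by 0.96 ± 0.22 at a dim level of 6.399 at ZT16 and 7.36 at ZT4. Leaving out single arrays ended the calls of Gm15998 (ZT16 array 1 or ZT4 array 2), Gnat1 (ZT16 array 3 or ZT4 array 2), Sort1 (ZT16 array 1 or ZT4 array 2) and Phospho1 (ZT16 array 1 or 3 or ZT4 array 1 or 3). Their differences then ran from -1.11 to -0.87, -1.04 to -0.90, -1.17 to -0.80 and -1.14 to -0.82.

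Of the 17 tested core clock genes, 5 were higher and 3 lower at ZT16, so 47.1% of the list was called against 3.51% of all genes. The arrays of the groups did not overlap for 14 of the 17, against 24.9% of all tested genes. Among the activators, Arntl read 8.32, 8.76 and 8.71 at ZT16 against 7.21, 7.32 and 7.46 at ZT4, with every ZT16 array above every ZT4 array. This is a 2.41-fold rise (1.27 ± 0.20, adjusted p = 0.000273). Clock, its partner, had a difference of 0.30 ± 0.10 that did not pass (adjusted p = 0.0903), at 10.11, 10.04 and 10.09 at ZT16 against 9.62, 9.79 and 9.94 at ZT4.

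Among the repressors of the loop, Per1 read 7.82, 7.91 and 7.87 at ZT16 against 6.64, 6.56 and 6.74 at ZT4, and the tight groups differed 2.33-fold (adjusted p = 0.000472). Per2 read 8.91, 8.98 and 8.84 at ZT16 against 8.09, 7.89 and 7.86 at ZT4, a rise of 0.97 ± 0.13 (adjusted p = 3.17e-05) with no overlap. Per3 and Cry2 did not pass, with differences of 0.11 ± 0.14 and 0.13 ± 0.11 and overlapping arrays. Ciart, a further repressor of CLOCK and ARNTL, read 6.83, 6.93 and 6.89 at ZT16 against 7.18, 7.03 and 7.20 at ZT4. Its ZT16 arrays all lay just below its ZT4 arrays, but the difference of -0.25 ± 0.28 did not pass (limma adjusted p = 0.763). The error is shared over 12 groups, and the gene also did not pass in any of 18 alternatives, among them fits without chow arrays.

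In the stabilising arm, Nr1d2, the paralog of Nr1d1, fell by 0.64 ± 0.17 (adjusted p = 0.0241), at 9.16, 9.27 and 9.21 at ZT16 against 9.87, 9.92 and 9.78 at ZT4. Its call was lost without ZT16 array 1, 2 or 3 or ZT4 array 1 or 2, with a range of -0.68 to -0.61. Nfil3, which encodes a repressor acting on D-box sites, rose by 0.71 ± 0.14 (adjusted p = 0.00378), and Bhlhe41, an E-box repressor, fell by 0.82 ± 0.17 (adjusted p = 0.00383). Bhlhe41 was dim, at 5.57, 5.98 and 5.87 at ZT16 against 6.43, 6.84 and 6.61 at ZT4, and its ZT16 arrays lay below the filter level of 6.11. It kept its call in all 17 alternatives, with a range of -1.04 to -0.50. Bhlhe40, Rora, Csnk1d, Csnk1e and Fbxl21 did not pass, with differences from -0.26 to 0.27. When single arrays were left out, 5 or 6 members were higher and 2 or 3 lower.

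Promoter windows show the letters that clock factors are known to read. RefSeq windows on GRCm38.p6, from 250 bases before to 50 after a start, were matched to 104 of the 126 genes selected for naming. They were searched on both strands for CACGTG (the E-box of CLOCK and ARNTL), TTATGTAA (the D-box of DBP and NFIL3) and TAGGTCA (a core read by ROR and REV-ERB proteins). The E-box was present for 4 of 14 core clock genes with a window (28.6%), against 8.09% of 27025 genes in the table and 11.2% of 11085 tested genes. Of the called genes with a window, 25 of 204 higher at ZT16 (12.3%) and 34 of 198 lower at ZT16 (17.2%) held it. The D-box and the ROR core were present for 1.11% and 2.97% of all genes in the table. Among the core clock genes with a window, 1 of 14 held the D-box and 2 of 14 the ROR core. Single matches were also present for Per1 (E-box, 166 bases before the start), Bhlhe41 (E-box, 153 before) and Nfil3 (ROR core, 12 before). The 4 windows below were picked from the clock genes with a match as examples of each motif, with the matches in capitals. They are Cry1 at chr10:85185005-85185304 on the minus strand, with an E-box 60 bases before the start that overlaps a match to CACNCCAC, and Ciart at chr3:95882179-95882478 on the minus strand, with E-boxes 116, 58 and 44 bases before it. Per3 at chr4:151044616-151044915 on the minus strand has D-boxes 205 and 158 bases before its start, and Arntl at chr7:113207261-113207560 on the plus strand has a ROR core 30 bases after 1 of its starts.
Cry1 (E-box in capitals): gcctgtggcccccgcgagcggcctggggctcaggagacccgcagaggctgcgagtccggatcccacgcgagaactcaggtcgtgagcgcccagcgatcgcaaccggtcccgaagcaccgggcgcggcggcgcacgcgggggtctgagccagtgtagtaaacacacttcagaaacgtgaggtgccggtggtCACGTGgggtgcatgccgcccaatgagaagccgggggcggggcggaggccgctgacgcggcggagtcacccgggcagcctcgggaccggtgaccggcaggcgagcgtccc
Ciart (E-boxes in capitals): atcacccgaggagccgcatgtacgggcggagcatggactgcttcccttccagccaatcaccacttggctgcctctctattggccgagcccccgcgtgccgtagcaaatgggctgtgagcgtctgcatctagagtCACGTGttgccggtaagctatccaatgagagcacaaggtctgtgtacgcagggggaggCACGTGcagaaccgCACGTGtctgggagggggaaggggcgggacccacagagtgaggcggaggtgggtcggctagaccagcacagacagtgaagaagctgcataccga
Per3 (D-boxes in capitals): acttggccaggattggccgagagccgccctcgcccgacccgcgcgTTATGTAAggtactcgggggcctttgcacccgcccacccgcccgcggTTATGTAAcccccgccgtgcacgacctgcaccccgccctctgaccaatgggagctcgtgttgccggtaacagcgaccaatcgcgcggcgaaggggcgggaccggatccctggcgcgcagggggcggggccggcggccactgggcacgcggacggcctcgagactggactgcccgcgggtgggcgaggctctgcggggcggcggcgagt
Arntl (ROR core in capitals): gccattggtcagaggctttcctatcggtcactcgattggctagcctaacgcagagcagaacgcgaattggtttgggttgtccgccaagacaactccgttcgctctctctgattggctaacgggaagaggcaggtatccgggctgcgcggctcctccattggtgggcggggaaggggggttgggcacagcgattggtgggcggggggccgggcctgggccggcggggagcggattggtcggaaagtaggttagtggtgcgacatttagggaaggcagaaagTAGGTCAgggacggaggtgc
A match describes these letters only, and the window of Nr1d1 holds none of the 3 clock motifs.

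Of 20 tested clock output genes, 7 rose, 1 fell and 12 did not pass, so 40% were called against 3.51% of all genes. Those that rose were Lonrf3, Usp2, Noct, Tspan4, Elovl3, Ppard and Nampt. Tspan4, a tetraspanin gene, read 10.19, 10.30 and 10.36 at ZT16 against 9.15, 9.27 and 9.28 at ZT4, a 2.07-fold rise with tight groups (adjusted p = 5.09e-08). Elovl3, which elongates very long chain fatty acids, read 12.29, 12.54 and 12.64 at ZT16 against 11.11, 11.68 and 11.85 at ZT4. Its groups did not overlap and differed by 0.94 ± 0.15 (adjusted p = 0.000169). Ppard, a nuclear receptor gene named after its values were seen, rose by 0.65 ± 0.15. Dbp was the member that fell, while its relatives Tef and Hlf had differences of 0.17 ± 0.13 and 0.21 ± 0.10 that did not pass. Rgs16, also named after its values were seen, had a difference of -2.02 with an error of 0.68 and did not pass (adjusted p = 0.0971).

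Of 22 tested members of the cholesterol synthesis and SREBF2 target list, 0 rose at ZT16, 9 fell and 13 did not pass. The called share was 40.9%, against 3.51% of all genes. The list had a median difference of -0.53, against -0.02 over all tested genes, and 19 members had a negative sign. The members that fell span the pathway, from Hmgcs1 and the mevalonate enzymes Mvk and Mvd to Fdft1 and Sqle, which form and oxidise squalene, and the later enzymes Cyp51, Msmo1, Hsd17b7 and Dhcr7. Sqle, Mvk, Mvd, Hsd17b7 and Dhcr7 are named because they complete the 9.

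Hmgcs1 read 10.95, 10.96 and 11.07 at ZT16 against 12.37, 12.07 and 11.69 at ZT4, so it was 2.07-fold lower at ZT16 (adjusted p = 8.37e-05). Fdft1 read 10.86, 10.97 and 11.11 at ZT16 against 11.88, 11.86 and 11.45 at ZT4 (-0.75 ± 0.15, adjusted p = 0.00314). Cyp51 read 9.72, 9.60 and 9.88 at ZT16 against 10.87, 10.56 and 10.15 at ZT4 (-0.79 ± 0.17, adjusted p = 0.00713). In each the ZT16 arrays lay together, and ZT4 array 3 was the nearest to them. The same array was the lowest of the ZT4 arrays for 21 of the 22 members, and ZT4 array 1 was the highest for 19. The members thus moved together from array to array and are not independent of each other. The groups did not overlap for 16 members, against 24.9% of all tested genes. Srebf2, which encodes the transcription factor that drives the pathway, had a difference of -0.21 ± 0.08 that did not pass (adjusted p = 0.151).

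Leaving out ZT16 array 1, 2 or 3 left 4, 5 or 6 lower members, and leaving out ZT4 array 1, 2 or 3 left 4, 4 or 12, with list medians from -0.66 to -0.42. The call of Cyp51 was lost without ZT4 array 1. On chow, 3 members were called lower at ZT16 and the list median was -0.20. The difference between the diets, however, was called for 0 of the 22 in limma. At an unadjusted p under 0.05 it held for 6, against 1273 of all 13956 tested genes. Of 18 members with a promoter window, 2 held CACNCCAC, a core of sterol-responsive elements (11.1%), against 7.12% of all genes in the table. The Hmgcs1 window, chr13:119690101-119690400 on the plus strand, is shown because this gene had the largest fall of the list, with the match 136 bases before the start in capitals.
Hmgcs1 (CACNCCAC match in capitals): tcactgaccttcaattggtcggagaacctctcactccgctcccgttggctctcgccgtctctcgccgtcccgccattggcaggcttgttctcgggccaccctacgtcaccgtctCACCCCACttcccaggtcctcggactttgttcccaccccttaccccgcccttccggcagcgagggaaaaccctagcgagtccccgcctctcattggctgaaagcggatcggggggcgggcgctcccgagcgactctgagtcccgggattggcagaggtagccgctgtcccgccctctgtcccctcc

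Of 17 tested interferon-stimulated genes, 0 rose at ZT16, 7 fell (41.2% of the list, against 3.51% of all genes called) and 10 did not pass. The list median was -0.32, and the groups did not overlap for 10, against 24.9% of all tested genes. ZT4 array 3 was the highest of the ZT4 arrays for 12 of the 17 and the lowest for 1. ZT16 array 1 was the lowest of the ZT16 arrays for 10 and the highest for 2. The members thus moved partly together and are not independent of each other. Usp18, a protease that limits interferon signalling, read 7.95, 8.32 and 8.12 at ZT16 against 8.97, 9.08 and 9.19 at ZT4, with a gap of more than 0.6 between the groups (-0.96 ± 0.14, adjusted p = 0.000121). Ifit1, an RNA-binding antiviral protein gene, read 8.09, 8.27 and 8.27 at ZT16 against 8.81, 9.06 and 9.31 at ZT4 (-0.86 ± 0.18, adjusted p = 0.0044). Ifit3 and Oasl1 fell by 0.61 ± 0.17 and 0.53 ± 0.14, and the RNA sensor genes Ddx58 and Dhx58 and the GTPase gene Irgm1, which complete the 7, by 0.35, 0.47 and 0.46. Irf7 and Stat2, transcription factors of the response, did not pass, at -0.08 and 0.10. When any of the 6 arrays was left out, 2 or 3 members were called and the list median lay between -0.36 and -0.25. Ifit3 lost its call without each array (range -0.67 to -0.53) and Oasl1 without every array except ZT16 array 2 (range -0.60 to -0.45). On chow 6 members were called lower at ZT16, with a list median of -0.24. Summed markers of T, NK and B cells were 757 to 857 at ZT16 and 788 to 930 at ZT4, and those of Kupffer cells overlapped as given above. Their part in this result was not tested.

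**Figure D2:**
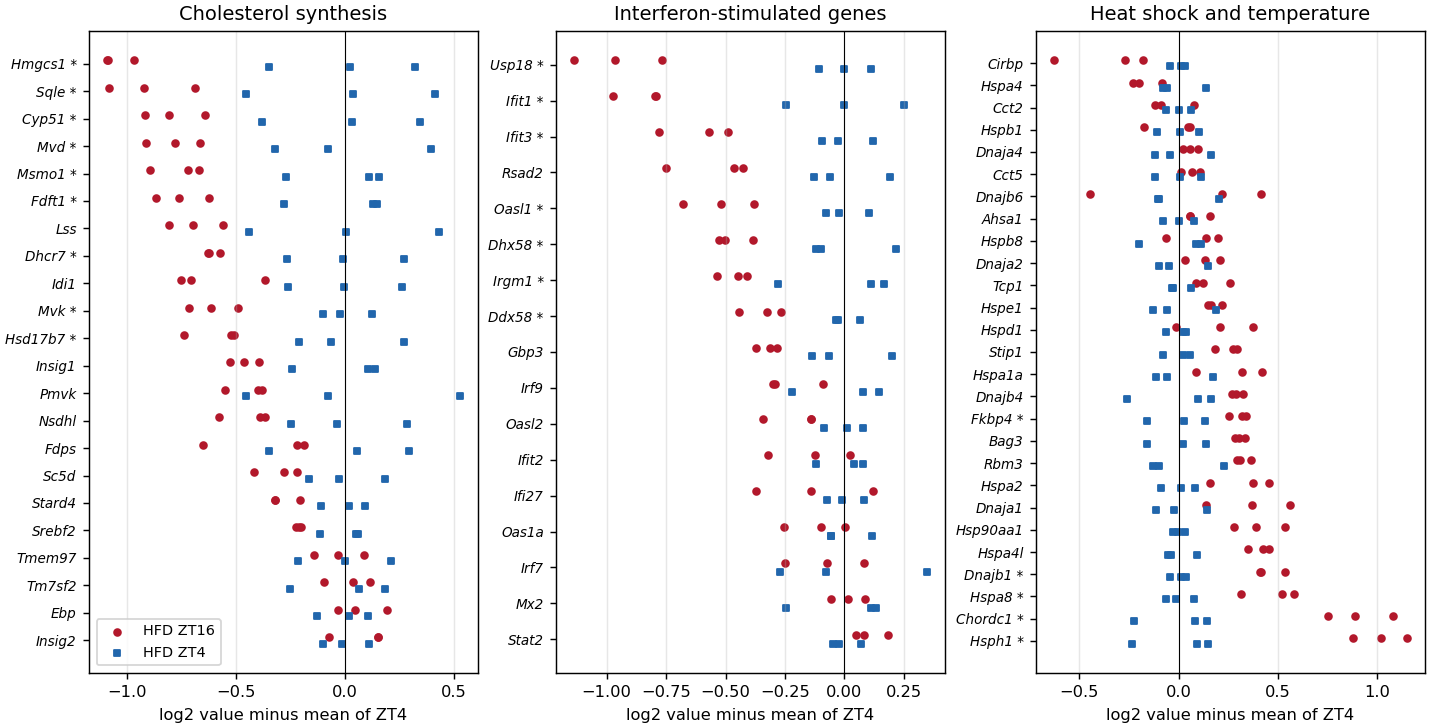
Each row is a tested member of the cholesterol synthesis, interferon-stimulated or heat shock list, with its log2(intensity + 16) on every HFD array minus the mean of the 3 ZT4 arrays, for ZT16 (red circles) and ZT4 (blue squares). Asterisks mark called members, which are 9 of 22, 7 of 17 and 5 of 27, and the ZT16 points of the called cholesterol and interferon genes all lie left of the ZT4 points.

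Of 27 tested heat shock and temperature genes, 5 rose at ZT16, 0 fell and 22 did not pass, with a list median of 0.25 and 18.5% of the list called against 3.51% of all genes. Hsph1, an HSP110 chaperone gene, read 9.45, 9.18 and 9.32 at ZT16 against 8.06, 8.39 and 8.44 at ZT4, a 2.02-fold rise with no overlap (adjusted p = 0.00378). Chordc1, an HSP90 co-chaperone gene, rose by 0.91 ± 0.20, and Hspa8, the constitutive HSP70 gene, by 0.47 ± 0.09. Fkbp4, another HSP90 partner, rose by 0.30 ± 0.08, and Dnajb1, which completes the 5, by 0.45 ± 0.13. Cirbp, a cold-induced RNA-binding protein gene, had a difference of -0.36 ± 0.16 that did not pass. The call of Chordc1 was lost without ZT16 array 3 or ZT4 array 2, that of Fkbp4 without ZT16 array 1 or 3 or ZT4 array 1 or 2, with ranges of 0.79 to 0.98 and 0.22 to 0.37. When single arrays were left out, 2 to 4 members were called. On chow 16 members were called higher and 1 lower, with a list median of 0.49. The difference between the diets was called for 0 members in limma. At an unadjusted p under 0.05 it held for 8, against 1273 of all 13956 tested genes. A match to TTCNNGAA, the core of heat shock elements, was present for 7 of 24 members with a window (29.2%), against 9.6% of all genes in the table. The Hsph1 window, chr5:149636287-149636586 on the minus strand, is shown as the member with the largest rise, with matches in capitals starting 33 bases before and 36 after 1 of its 2 listed starts.
Hsph1 (TTCNNGAA matches in capitals): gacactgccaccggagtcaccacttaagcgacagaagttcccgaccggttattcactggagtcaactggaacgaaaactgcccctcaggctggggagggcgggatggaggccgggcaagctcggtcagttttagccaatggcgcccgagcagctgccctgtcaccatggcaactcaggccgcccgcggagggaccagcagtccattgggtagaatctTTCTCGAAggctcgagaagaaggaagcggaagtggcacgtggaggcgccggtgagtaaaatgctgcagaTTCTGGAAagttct

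Of 22 tested glucocorticoid-responsive genes, 4 rose (18.2%, against 3.51% of all genes called), 0 fell and the list median was 0.31. The sign was positive for 17 members and negative for 5. The lowest were Lcn2 at -1.18 and Mt2 at -0.68, with arrays that did not overlap, and neither passed. Tsc22d3, which encodes the glucocorticoid-induced leucine zipper protein, read 9.58, 9.42 and 9.63 at ZT16 against 8.34, 8.49 and 8.75 at ZT4 (2.02-fold, adjusted p = 6.08e-05). Fkbp5, a co-chaperone of the glucocorticoid receptor, read 8.26, 8.25 and 8.04 at ZT16 against 7.43, 7.08 and 7.10 at ZT4 (1.97-fold, adjusted p = 0.000186). In both genes all ZT16 arrays exceeded all ZT4 arrays. Errfi1, an inhibitor of the EGF receptor, rose by 0.54 ± 0.09, and Per1, described above, is the fourth. The same 4 genes were called higher without each of the 6 arrays. The receptor gene Nr3c1 had a difference of 0.23 ± 0.08 and Tat, which breaks down tyrosine, of 0.32 ± 0.11, and neither passed.

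In NAD metabolism 5 of 23 tested genes rose and 0 fell, with a list median of 0.07. The called share was 21.7%, against 3.51% of all genes. Nmrk1, a nicotinamide riboside kinase gene, read 9.54, 9.78 and 9.95 at ZT16 against 8.53, 8.52 and 8.60 at ZT4, a 2.31-fold rise (adjusted p = 3.65e-06) with ZT4 arrays that hardly differed. Acmsd, which diverts tryptophan breakdown away from NAD, read 9.16, 9.01 and 9.14 at ZT16 against 7.31, 8.16 and 8.18 at ZT4. Its rise was 1.22 ± 0.25 (adjusted p = 0.00421), and it was 0.93 and not called without ZT4 array 1, the lowest. Nampt, the rate-limiting enzyme of NAD salvage, rose by 0.61 ± 0.12, Afmid, an enzyme of tryptophan breakdown, by 0.60 ± 0.10, and Nnmt, which methylates nicotinamide, by 0.62 ± 0.17. The call of Nnmt was lost without ZT16 array 2 or 3 or ZT4 array 1 or 3, with a range of 0.44 to 0.75. When single arrays were left out, 3 to 5 members were called, with 3 without ZT4 array 1.

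Amino acid breakdown had 3 called members of 32 (9.38%, against 3.51% of all genes), and 0 fell. Asl, the argininosuccinate lyase of the urea cycle, read 11.79, 11.79 and 11.76 at ZT16 against 11.01, 11.13 and 11.09 at ZT4 (1.63-fold, adjusted p = 3.7e-06). Its 2 groups were tight and well apart. Prodh, which starts proline breakdown, rose by 0.53 ± 0.10, and Aass, which starts lysine breakdown, by 0.32 ± 0.08. The call of Aass was lost without ZT16 array 2 or 3 or ZT4 array 1, with a range of 0.25 to 0.38. Of 22 CAR and PXR targets, 3 rose (13.6%) and 0 fell. Cyp2b10 is 1 of the 3, dim on HFD and with a call that was easily lost, as given above. Cyp3a13, a cytochrome P450 gene, rose by 0.62 ± 0.09 (limma adjusted p = 0.000141). Nr1i2, which encodes PXR itself, rose by 0.48 ± 0.10 (adjusted p = 0.00634).

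One-carbon metabolism had 3 of 26 members higher and 1 lower (15.4% called, against 3.51% of all genes). Mtrr, which reactivates methionine synthase, rose by 0.39 ± 0.08, choline kinase Chka by 0.73 ± 0.17, and Nnmt is shared with the NAD list. Cbs, the first enzyme of transsulfuration, fell by 0.40 ± 0.10. Chka lost its call without ZT16 array 2 or 3 or ZT4 array 2 (range 0.63 to 0.86), and Cbs without ZT16 array 1 or 3 or ZT4 array 2 or 3 (range -0.47 to -0.35). Single members rose in the glucose lists, or 5.26% to 5.56% of a list. They were the glucose-6-phosphate transporter Slc37a4 (0.57 ± 0.08, adjusted p = 9.38e-05), the glycolytic regulator Pfkfb2 (0.42 ± 0.09) and the glycogen-targeting phosphatase subunit Ppp1r3b (0.61 ± 0.16). The call of Ppp1r3b was lost without ZT16 array 1, 2 or 3 or ZT4 array 1 or 2, with a range of 0.56 to 0.67.

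The called share was 4.76% in fatty acid synthesis, 14.3% in triglyceride synthesis and droplets and 6.25% in oxidation and ketogenesis, against 3.51% of all genes. Of 21 fatty acid synthesis genes only Thrsp, a thyroid hormone-responsive regulator of lipogenesis, passed. It read 12.12, 11.97 and 11.82 at ZT16 against 11.37, 10.78 and 10.86 at ZT4, a 1.96-fold rise with no overlap (adjusted p = 0.00347). Fasn, Acaca and Srebf1 had differences of -0.25 ± 0.24, -0.02 ± 0.17 and -0.25 ± 0.14 that did not pass. On chow Fasn, the fatty acid synthase, and Srebf1, a driver of lipogenesis, rose by 0.79 and 0.49, but the difference between the diets did not pass for either (limma adjusted p = 0.278 and 0.194). Of 21 genes of triglyceride synthesis and droplets, Plin5, a droplet coat gene, rose by 0.74 ± 0.11 (adjusted p = 0.000132). Plin2, another droplet coat gene, fell by 0.40 ± 0.10, and Gpam, the first enzyme of triglyceride synthesis, by 0.51 ± 0.14. Both lost the call without ZT16 array 1, 2 or 3 or ZT4 array 1 or 2, and Gpam was -0.30 without ZT4 array 1, the highest.

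Of 32 genes of fatty acid oxidation and ketogenesis, 1 rose and 1 fell. Acot1, a cytosolic acyl-CoA thioesterase gene, rose by 0.92 ± 0.25 (adjusted p = 0.0348), and Bdh1, which interconverts the ketone bodies, fell by 0.37 ± 0.09 (adjusted p = 0.0213). Both calls were lost without each of the 6 arrays in turn, with ranges of 0.85 to 0.96 and -0.39 to -0.34. Ppara and Cpt1a, the receptor and the gate of mitochondrial import, had differences of -0.07 ± 0.12 and -0.02 ± 0.08.

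Among 25 bile acid and sterol transport genes 3 fell (12%, against 3.51% of all genes called) and 0 rose. Hsd3b7, an early enzyme of bile acid synthesis, read 10.88, 11.06 and 11.12 at ZT16 against 11.43, 11.65 and 11.55 at ZT4 (-0.52 ± 0.08, adjusted p = 0.00027), with no overlap. Abcg8, which exports sterols into bile, fell by 0.69 ± 0.14, and Nr0b2, the repressor SHP of bile acid synthesis, by 0.88 ± 0.21. Nr0b2 lost its call without ZT16 array 2 or 3 or ZT4 array 2, with a range of -1.04 to -0.73. Cyp7a1, whose enzyme sets the pace of bile acid production, had a difference of 0.45 ± 0.16 that did not pass (adjusted p = 0.125). Of 20 lipoprotein genes, 2 fell (10%), Sort1 as given above and Lpl, lipoprotein lipase, by 0.84 ± 0.20. Lpl was not called without ZT16 array 1 or ZT4 array 1 (range -0.96 to -0.68).

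In protein turnover, 6 of 33 proteasome genes fell (18.2%, against 3.51% of all genes called) and 0 rose. The differences were small, from -0.39 to -0.28, and the list median was -0.11. The genes that fell were Psmd4 (-0.39 ± 0.10), Psma5, Psmd2, Psmd1 and, completing the 6, Psmc4 and Psma1. Without ZT16 array 1, 2 or 3 the list had 1, 1 or 2 called members, and without ZT4 array 1, 2 or 3 it had 0, 2 or 3. Among 19 autophagy genes, Sqstm1, the cargo receptor p62, fell by 0.42 ± 0.08 (adjusted p = 0.00155), Atg7, an enzyme of autophagosome formation, by 0.38 ± 0.08, and Gabarapl1, an ATG8 family gene, by 0.42 ± 0.12. Bnip3, a receptor of mitophagy, rose by 0.39 ± 0.08, and 21.1% of the autophagy list was called. Atg7 lost its call without ZT16 array 1 or 3 (range -0.45 to -0.33), and Gabarapl1 lost it without every array except ZT16 array 3 (range -0.50 to -0.37).

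Further lists each held 1 or 2 called members, or 2.56% to 11.1% of a list against 3.51% of all genes, with oxidative phosphorylation, ribosome biogenesis and acute phase below that share. In the endoplasmic reticulum list (34 tested) Fkbp11 and Pdia6, which help proteins fold, fell by 0.64 and 0.44, and in the tRNA synthetase list (18) Cars and Sars fell by 0.41 and 0.32. In the insulin signalling list (27) the kinase gene Mtor fell by 0.40, beside Trib3. In the TCA cycle list (19) Sdhb, a subunit of succinate dehydrogenase, rose by 0.34 and citrate synthase Cs fell by 0.39, and Sdhb was also the member called of 39 in oxidative phosphorylation. In the nucleotide list (28) guanine deaminase Gda rose by 0.57 and the uridine kinase gene Uck2 by 0.41. Nolc1, a nucleolar protein gene, rose by 0.42 among 34 ribosome biogenesis genes, and the interleukin 6 receptor gene Il6ra by 0.76 among 30 acute phase genes. Of 22 sex-biased genes, Elovl3 rose and the cytochrome P450 gene Cyp4a12a fell by 0.55. Of these genes, Gda and Il6ra kept their call without each of the 6 arrays, as did Cars and Elovl3. The calls of Pdia6 and Uck2 were lost without each array, that of Nolc1 without every array except ZT4 array 3, that of Sars without ZT16 array 1, and that of Cyp4a12a without ZT4 array 2. Fkbp11 lost its call without ZT16 array 1 or ZT4 array 2, Mtor without ZT16 array 3 or ZT4 array 1, Sdhb without ZT16 array 3 or ZT4 array 1, and Cs without ZT16 array 2 or ZT4 array 1.

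Stress and growth lists held a few lower members, with 7.69% to 13.6% of a list called against 3.51% of all genes. In the glutathione and NRF2 list Srxn1, which repairs oxidised peroxiredoxins, fell by 0.76 ± 0.12 (adjusted p = 0.00027) and Gstm4, a glutathione transferase gene, by 0.77 ± 0.14, out of 26. In the ATF4 list Cars, Trib3 and Atf5 fell by 0.41, 0.46 and 0.37, out of 25. Trib3 lost its call without ZT16 array 1 or ZT4 array 1 or 2 (range -0.51 to -0.35), and Atf5 without each array (range -0.40 to -0.31). Of 22 cell cycle genes, the DNA damage-induced Gadd45a, the cyclin gene Ccnd1 and the replication licensing gene Mcm2 fell by 0.63 ± 0.14, 0.70 ± 0.17 and 0.44 ± 0.12. Gadd45a lost its call without ZT16 array 1 (range -0.69 to -0.54), Ccnd1 without ZT16 array 1, 2 or 3 or ZT4 array 1 (range -0.79 to -0.54), and Mcm2 without every array except ZT4 array 3 (range -0.50 to -0.39). The ribosomal protein list (26 tested), the pentose phosphate list (11), the iron and haem list (21) and the hepatocyte identity list (17) had 0 called members in limma, with list medians of 0.03, 0.01, 0.02 and 0.10. At an unadjusted p under 0.05 they held 1, 0, 3 and 3 genes, against 14.6% of all tested genes.

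**Figure D3:**
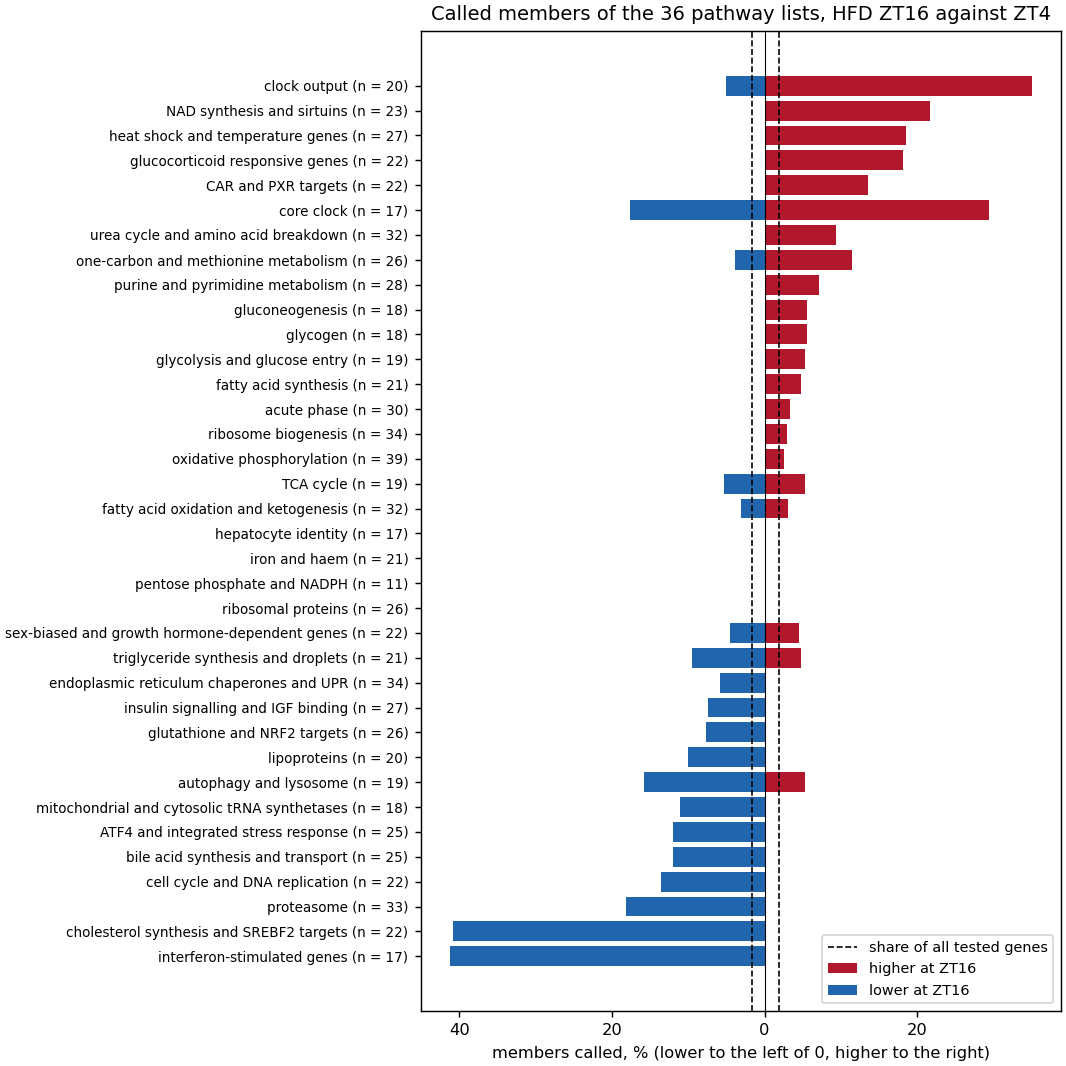
Share of tested members called higher (red, right of 0) or lower (blue, left of 0) at ZT16 than at ZT4 on HFD, in percent, for the 36 pathway lists with the number tested in brackets. Dashed lines give the shares of all tested genes, 1.85% higher and 1.66% lower, and the interferon (41.2%) and cholesterol (40.9%) lists reach farthest to the left.

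The same contrast on chow called 455 genes higher (3.26%) and 489 lower (3.5%). Of the 490 HFD calls, 236 were also called on chow in the same direction, 134 higher and 102 lower, which is 48.2% of the HFD calls and 25% of the 944 chow calls. None of the 490 was called in the opposite direction on chow. Of the 254 not called on chow, 216 had the same sign there. The 2 diets share no array in this contrast, and the differences correlated at r = 0.457 across all tested genes, which are not independent replicates. Nr1d1 differed by -3.32 on HFD and -3.70 on chow, Cry1 by 1.84 and 1.61, and Usp18 by -0.96 and -0.88.

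The difference between the diets was tested directly as the HFD contrast minus the chow contrast, and 10 of 13956 genes passed (0.0717%), 7 with a positive and 3 with a negative difference. The count depended on the setting, with 306 positive and 138 negative under array weights, and 2 to 9 positive and 1 to 6 negative when single arrays were left out. All 3 negative ones were clock repressors. Ciart had 6.83, 6.93 and 6.89 at ZT16 and 7.18, 7.03 and 7.20 at ZT4 on HFD, and 7.82, 7.55 and 7.25 at ZT16 and 5.05, 4.84 and 6.49 at ZT4 on chow. It was thus nearly level on HFD and 2.08 higher at ZT16 on chow, a difference between diets of -2.33 ± 0.40 (SE, adjusted p = 0.00953).

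Per2 rose on both diets, by 0.97 on HFD and by 2.04 on chow (difference -1.07 ± 0.19, adjusted p = 0.0098). On chow it read 9.20, 9.12 and 9.28 at ZT16 against 6.91, 7.22 and 7.36 at ZT4, so the chow ZT4 arrays lay below all HFD ZT4 arrays. Per3 differed by 0.11 on HFD and rose by 1.17 on chow, where it read 8.31, 8.19 and 8.22 at ZT16 against 6.83, 6.96 and 7.43 at ZT4 (difference -1.06 ± 0.20, adjusted p = 0.0225). The call of Ciart held under all 22 alternatives, but its size ran from -2.98 to -1.49. Over single arrays it ran from -2.85 to -2.03, so the extremes came with changes of processing. Its chow ZT4 mean of 5.46 was dim, below the filter level of 6.11. The call of Per2 was lost without HFD ZT16 array 3 (range -1.17 to -0.94 over single arrays). That of Per3 was lost in 9 of the 12 fits without 1 array (range -1.24 to -0.94) and with an offset of 1.

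Among the 7 genes with a positive difference, Elovl3 rose on HFD and read 11.75, 11.95 and 11.91 at ZT16 against 12.30, 12.34 and 12.33 at ZT4 on chow. Its chow difference of -0.46 did not pass, and the diets differed by 1.40 ± 0.21 (adjusted p = 0.00231). Fpgs, which adds glutamates to folates, read 10.41, 10.64 and 10.64 at ZT16 against 9.92, 10.08 and 10.12 at ZT4 on HFD, and 10.15, 10.08 and 10.04 at ZT16 against 10.37, 10.36 and 10.27 at ZT4 on chow. It rose by 0.52 on HFD, had a chow difference of -0.25 that did not pass, and differed between the diets by 0.77 ± 0.12 (adjusted p = 0.00269). Both kept their call under all 22 alternatives. For Asap2, Cpeb2, Kmt5b, Rfx4 and Rnf125, the HFD difference did not pass and the level on chow fell at ZT16 by 0.49 to 1.16 on the log2 scale (limma adjusted p from 1.16e-06 to 0.0015).

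Arntl had a chow difference of -0.004 that did not pass, at 8.13, 8.14 and 8.38 at ZT16 against 8.60, 8.07 and 7.99 at ZT4, while it rose on HFD. The difference of 1.27 ± 0.29 between the diets did not pass (adjusted p = 0.128), and neither did that of Dbp, at -1.02 ± 0.24 (adjusted p = 0.128).

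**Figure D4:**
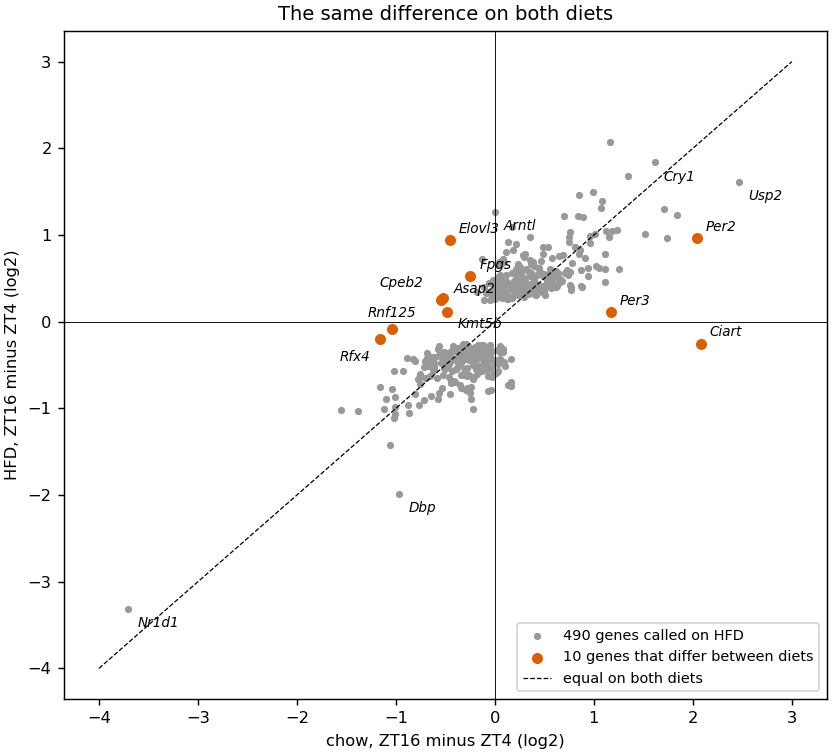
Difference between ZT16 and ZT4 (log2) on HFD (vertical) against the same difference on chow (horizontal) for the 490 genes called on HFD (grey) and the 10 genes whose difference differs between the diets (orange). Nr1d1 and Cry1 lie near the dashed line of equality, while Ciart, Per2 and Per3 lie below it and Elovl3 and Fpgs above it.

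The 6 harvest times place the 2 compared times within the daily profile on HFD. Of the 258 genes higher at ZT16, 149 had their highest HFD mean at ZT16 and 228 at ZT12, ZT16 or ZT20, and 147 had their lowest at ZT4. Of the 232 lower genes, 176 had their highest mean at ZT4 and 223 at ZT0, ZT4 or ZT8, and 130 had their lowest at ZT16. The contrast itself favours these times, since it selects high and low values at ZT16 and ZT4. ZT16 and ZT4 were the 2 extremes for 97 of the higher and 104 of the lower genes.

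Several clock genes had their extremes elsewhere. On HFD, Arntl averaged 8.92, 7.33, 5.98, 7.04, 8.60 and 8.98 over the 6 times in order from ZT0 to ZT20, so its trough was at ZT8 and its peak at ZT20. Ciart averaged 5.39, 7.14, 9.48, 9.09, 6.88 and 5.49 in the same order, and ZT4 and ZT16 lie at nearly equal levels on either side of its peak at ZT8. On chow its means were 4.87, 5.46, 9.25, 9.52, 7.54 and 5.79, with the peak at ZT12. Dbp averaged 7.31, 9.81, 10.66, 9.53, 7.83 and 6.62 on HFD, highest at ZT8 and lowest at ZT20. Nr1d1 was highest at ZT4 (10.67) and lowest at ZT20 (6.75) on HFD, and at the same times on chow. Elovl3 was lowest at ZT8 on HFD (10.45) and at ZT12 on chow (10.54).

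**Figure D5:**
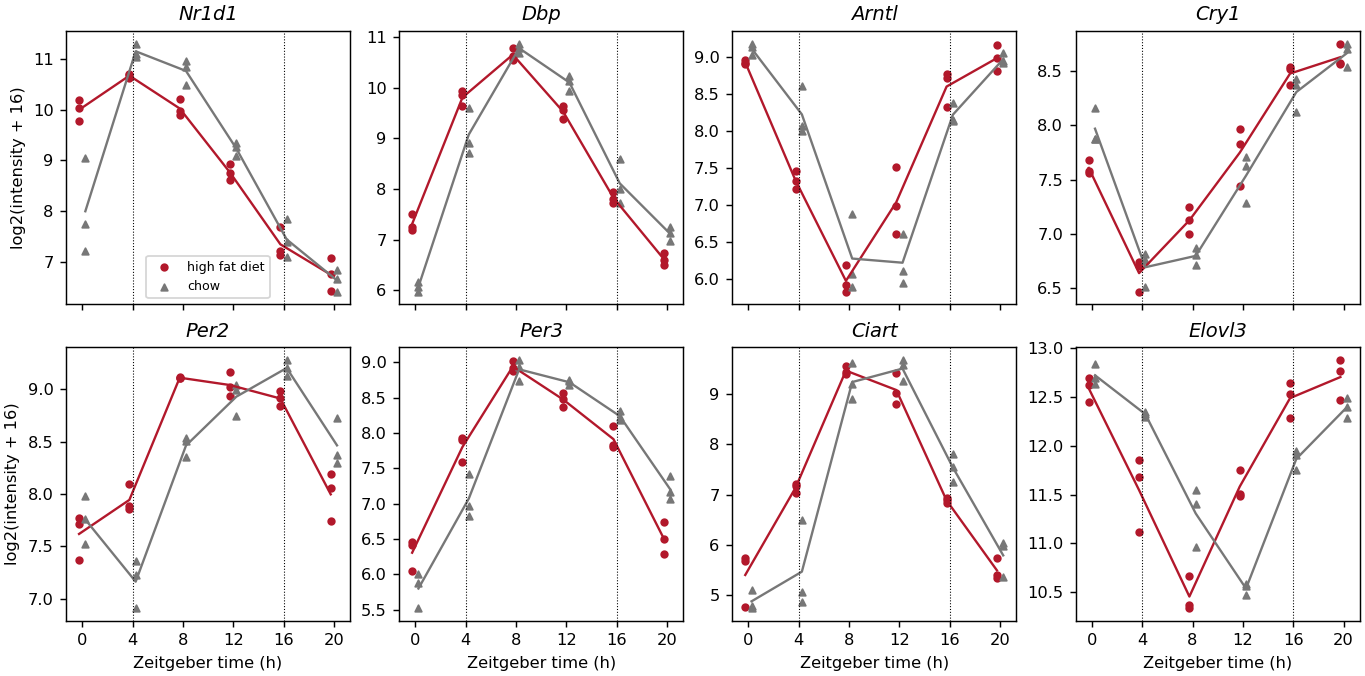
Log2(intensity + 16) against Zeitgeber time (h) for 8 genes, with 1 point per array and lines through the means of 3 for HFD (red circles) and chow (grey triangles), and with ZT4 and ZT16 marked by dotted lines. At ZT4 the HFD arrays of Ciart (7.03 to 7.20) lie above the chow arrays (4.84 to 6.49), and Arntl reaches its lowest mean at ZT8 on HFD (5.98) and at ZT12 on chow (6.22).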

How the data were processed

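RNA of 36 mouse liver samples was measured on Affymetrix whole-transcript arrays, 3 arrays for each of 12 groups of diet and time. The deposited values are linear probe set intensities, made with Expression Console 1.1.1 and PLIER 2.0 per the submitters' processing notes. How background was corrected and arrays were scaled is not given in the sources used here. From the deposited intensities, log2(intensity + 16) was computed. Of 35556 probe sets, 21789 name 1 gene, 1621 several and 12146 none in the table used. The brightest probe set stood for each of 19938 genes. Genes under the 30th percentile of mean level (log2 6.11) were left out, which kept 13956, including 851 of 876 measured list symbols. limma 3.58.1 in R 4.3.3 fitted 12 group means over 36 arrays (24 residual degrees of freedom), and p-values computed from the deposited values were adjusted by Benjamini-Hochberg. The comparisons were ZT16 minus ZT4 on HFD, the same on chow, and the HFD difference minus the chow difference. The fit was tested on simulated data. The number of arrays limits the precision.

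The genes named are the 12 highest and 12 lowest differences among called genes with no overlap between the groups' arrays, every measured core clock gene, up to 4 called members of each of 36 pathway and 11 marker lists by smallest p (the smallest p where none was called), and the genes called for the difference between diets. Any other gene with values in the text was named after its values were seen. Members and lists were chosen with earlier results of these data known. Alternatives covered scaling, offset, filter, probe set rule, weights, samples in the fit, threshold, replicate number and each array left out. Promoter windows are RefSeq sequences on GRCm38.p6.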

Additional observations from a re-analysis of the deposited data

Results flagged for a closer look

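The change between ZT16 and ZT4 differed between HFD and chow, by limma's test of that difference, in 10 genes. The values are the HFD difference minus the chow difference (log2, ± SE). Ciart had -2.33 ± 0.40, with -0.25 on HFD and 2.08 on chow. Per2 had -1.07 ± 0.19, with 0.97 on HFD and 2.04 on chow, and Per3 had -1.06 ± 0.20, with 0.11 on HFD and 1.17 on chow. Elovl3 had 1.40 ± 0.21, with 0.94 on HFD and -0.46 on chow. Fpgs had 0.77 ± 0.12, with 0.52 on HFD and -0.25 on chow.

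Asap2, a regulator of small GTPases, had 0.80 ± 0.14, with 0.27 on HFD and -0.52 on chow. Cpeb2, whose product binds messenger RNAs, had 0.80 ± 0.15, with 0.25 on HFD and -0.55 on chow. Kmt5b, a histone methyltransferase gene, had 0.61 ± 0.12, with 0.12 on HFD and -0.49 on chow. Rfx4, a transcription factor gene, had 0.96 ± 0.19, with -0.20 on HFD and -1.16 on chow, and Rnf125, a ubiquitin ligase gene, had 0.95 ± 0.18, with -0.09 on HFD and -1.04 on chow. Of the 12 fits that each leave out 1 array of these 4 groups, Ciart, Elovl3 and Fpgs passed in all. Per2 and Asap2 failed only without HFD ZT16 array 3. Per3, Cpeb2, Kmt5b and Rfx4 failed in 9 and Rnf125 in 7, with differences of -1.24 to -0.94, 0.75 to 0.86, 0.52 to 0.66, 0.871 to 1.095 and 0.87 to 1.06. Changes of processing also ended calls, for Cpeb2 median centring, for Kmt5b quantile normalization, median centring and no filter, for Rfx4 quantile normalization, median centring and an offset of 64, and for Per3 an offset of 1.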

How the results depend on the processing

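Of 98 named genes called on HFD, 53 kept the call under every alternative, 45 lost it under at least 1 and 0 changed direction. The counts of calls moved more, and are given here as higher and lower at ZT16. Smaller moves on HFD were 312 and 336 with quantile normalization and 201 and 179 with no filter. Fits of the 18 HFD arrays or the 6 arrays alone kept 360 and 366 of the 490 HFD calls. The counts that follow moved by more than 1.5-fold, with ranges for single arrays. Median centring gave 150 and 145 on HFD, 272 lower genes on chow and 4 genes with a positive difference between diets. Array weights gave 1047 and 945 on HFD, 1121 lower genes on chow, and 306 positive and 138 negative differences. Quantile normalization gave 5 negative differences. An adjusted p under 0.01 gave 111 and 80 on HFD, 213 and 214 on chow and 3 positive differences. At least 1.5-fold kept 76 and 62 on HFD and 119 and 105 on chow. Leaving out single arrays gave 120 to 207 and 85 to 172 on HFD, 299 to 426 and 265 to 498 on chow, and 2 to 9 positive and 1 to 6 negative differences. The causes were not tested. The share of higher genes among chow calls was 48.2%, against 56.3% with median centring and 32.1% with array weights, and the share of positive differences was 70%, against 54.5% with quantile normalization, 57.1% with median centring, 50% without HFD ZT16 array 2 or chow ZT16 array 3, and 40% without chow ZT4 array 3. The share of higher genes among HFD calls was 52.7%, against 65.6% without ZT16 array 1. Of the uncalled genes, Cela2a changed sign with array weights (-0.029), and over single arrays Cela2a ran from -0.054 to 0.110, Alas2 from -0.115 to 0.063, Rnf125 from -0.166 to 0.030 and Plin1 from -0.183 to 0.058. Same-numbered HFD arrays of ZT16 and ZT4 deviated together at r = 0.02, -0.13 and 0.34. These values, from 3 arrays per group, do not settle whether the numbers pair the samples. With a replicate block 249 and 224 genes were called on HFD, of which 455 in all are among the 490, and not every array correlated best with its own number.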
